A study of Homo sapiens with 60 samples.

Results

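An ethanol extract of Angelicae Gigantis Radix, the dried root of Angelica gigas, is described here at 3 doses in A549 cells, an established human lung adenocarcinoma line. The data are 3 of the 60 RNA-seq libraries of the series, chosen by their labels, with 1 library at each of 20, 100 and 500 µg/mL and a treatment time of 24 h. The 500 and 100 µg/mL libraries were each set against the 20 µg/mL library, and no test was possible with 1 library a dose. The background was the spread of 18 libraries of 7 other extracts at 20 µg/mL in the same cells at the same time: the water extracts of Sibjeondaebo-tang and Palmul-tang, and the ethanol extracts of Poria Cocos, Atractylodis Rhizoma, Glycyrrhizae Radix, Panax Ginseng and Paeoniae Radix. The 3 vehicle libraries, labelled with 0.1% DMSO, are given beside the results. The design text names a higher DMSO percentage, and lower doses tied to toxicity for some extracts, while the labels of the Angelicae libraries give the 3 doses named here. All cells are of 1 cancer line grown without other cell types, so the libraries show the response of that line only.

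Angelica gigas root is known for the pyranocoumarins decursin and decursinol angelate. Coumarins and other plant aromatics can bind the aryl hydrocarbon receptor, a transcription factor that switches on cytochrome P450 genes of the CYP1 family. HMOX1, haem oxygenase, is a stress gene under the transcription factor NRF2, which is constitutively active in A549 cells because its inhibitor KEAP1 is mutated. Genes of cholesterol and fatty acid synthesis are driven by the SREBP transcription factors, which INSIG1 and related proteins hold in the endoplasmic reticulum when sterols are plentiful.

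The Angelicae libraries held 24200144, 23958867 and 23123302 counts at 20, 100 and 500 µg/mL, within the 18602480 to 29764332 of the series. Genes with a count above 0 numbered 22869, 22695 and 22683 in the same order. One low-dose library of Poria Cocos stood apart with 27941 such genes, and counts without it are given with the results. All 12 A549 markers, among them keratins, aldo-keto reductases and NQO1, passed the level filter. Fibroblast markers summed to 17.9, 18.4 and 15.0 counts per 1000000 (CPM) at 20, 100 and 500 µg/mL, and blood and immune cell markers to 3.57, 3.70 and 3.29 CPM. The 5 endothelial markers summed to 20.1, 21.1 and 19.5 CPM, against 19.6 to 23.6 CPM in the other low-dose libraries. Of these markers 1 passed the level filter, while VWF and CDH5 were at 0 in all 3 Angelicae libraries. The labels do not say whether libraries came from separate cultures. In these bulk samples, fewer cells of a type and less RNA per cell cannot be told apart.

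Few genes stood apart at 500 µg/mL, and those that did included a stress enzyme, a xenobiotic-metabolising enzyme, lipid synthesis genes and secreted plasma proteins. The genes compared were the 9306 that averaged 10 CPM or more over the 3 Angelicae libraries. Of these, 8 were at least 1.5-fold higher (0.086%) and 4 at least 1.5-fold lower (0.043%) at 500 than at 20 µg/mL, 0.129% in all, on the log2(CPM + 1) scale. Only 2 of these 12 (0.0215% of the genes) also lay outside the range of the 19 low-dose libraries, that is the 18 of the other extracts and the Angelicae library at 20 µg/mL. They were HMOX1, which was higher, and ANXA13, an epithelial annexin, which was lower. The other 10 lay inside that range and included ZNG1C, ZNG1F and EIF3CL, genes with near-identical copies among which the estimated counts can be split differently in each library. EIF3CL, for example, had 14.0, 9.26 and 42.9 CPM at 20, 100 and 500 µg/mL, while the 18 other low-dose libraries ran from 4.85 to 96.1 CPM. At 100 µg/mL, 5 genes passed 1.5-fold against 20 µg/mL (0.0537%), and 0 of them lay outside the low-dose range (0.0%).

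Libraries of other extracts at the low dose differed from the Angelicae low-dose library by as much. Between 5 and 35 genes passed 1.5-fold in each of the 18, with a median of 13, against 12 for the Angelicae 500 µg/mL library. The SD of the log2 ratio over all counted genes was 0.116 for 500 against 20 µg/mL and 0.0901 for 100 against 20 µg/mL. It was 0.111 to 0.178 for the low-dose libraries of the other extracts. Set high against low dose in the same way, single libraries of Paeoniae Radix differed in 1701 genes and those of Glycyrrhizae Radix in 550 to 648 genes. The numbers were 6 to 24 for Atractylodis, 9 to 19 for Ginseng, 14 to 18 for Palmul-tang, 2 to 29 for Poria and 19 to 31 for Sibjeondaebo-tang, ranges that reach or surround the 12 genes of Angelicae in 3 of these 5 extracts.

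A smaller fold, 1.2, was chosen after those counts had been seen. At 500 µg/mL, 50 genes were at least 1.2-fold higher than at 20 µg/mL and above the low-dose range (0.537%), and 74 genes were at least 1.2-fold lower and below it (0.795%). At 100 µg/mL the counts were 13 higher (0.14%) and 9 lower (0.0967%). One higher gene, the spindle checkpoint kinase TTK, and one lower gene, PDZK1IP1, passed at both doses. The 100 µg/mL level lay between the other two in 46 of the 50 higher and 67 of the 74 lower genes, against 41.7% of all counted genes. Choosing genes by the 20 and 500 µg/mL libraries favours that order. Of the genes past the fold and range at 500 µg/mL, 37 of the 50 were also above all 3 vehicle libraries, and 58 of the 74 below them. The share of all counted genes above or below the vehicle libraries was not counted, so these numbers have no background beside them.

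The Angelicae 20 µg/mL library is a single measurement too, so each library was also held against 18 low-dose libraries of other samples. Genes were counted at the same fold from the mean of those 18 and outside their range. At 500 µg/mL, 48 genes were then higher (0.516%) and 73 lower (0.784%). These held 22 of the 50 higher genes (44.0%) and 38 of the 74 lower genes (51.4%) found against the 20 µg/mL library. The 100 µg/mL library had 23 higher (0.247%) and 19 lower genes (0.204%), and the 20 µg/mL library 17 higher (0.183%) and 40 lower genes (0.43%). In both directions together that is 57, 42 and 121 genes at 20, 100 and 500 µg/mL. The low-dose libraries of the other extracts, each held out and compared with the rest, had 8 to 698 with a median of 47.5. Among the 18, 5 had more than the Angelicae 500 µg/mL library, and the largest number was in the low-dose Paeoniae Radix library, whose sample code shares its first number with the Angelicae libraries. For the other 6 extracts the rest included low-dose libraries of the same extract, which can make their counts smaller. Neither the Angelicae libraries nor the Paeoniae Radix library, with 698, had such a library among the 18 they were compared with.

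**Figure D1:**
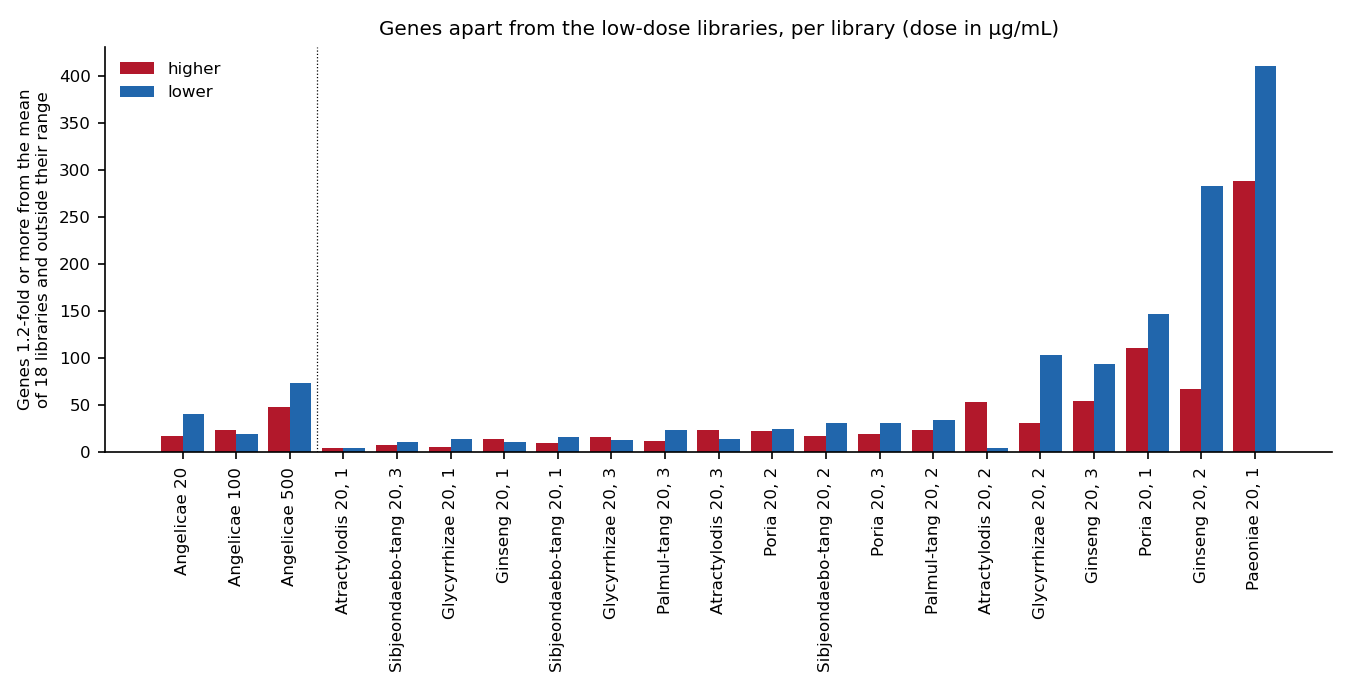
Number of genes (vertical axis) at least 1.2-fold from the mean of 18 low-dose libraries and outside their range, higher in red and lower in blue, for the Angelicae libraries at 20, 100 and 500 µg/mL and then for each low-dose library of another extract (extract, dose in µg/mL, replicate), sorted by total. The Angelicae 500 µg/mL library has 121 such genes, and 5 of the 18 low-dose libraries have more. Replicated extracts are compared with a set that includes low-dose libraries of the same extract.

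**Figure D2:**
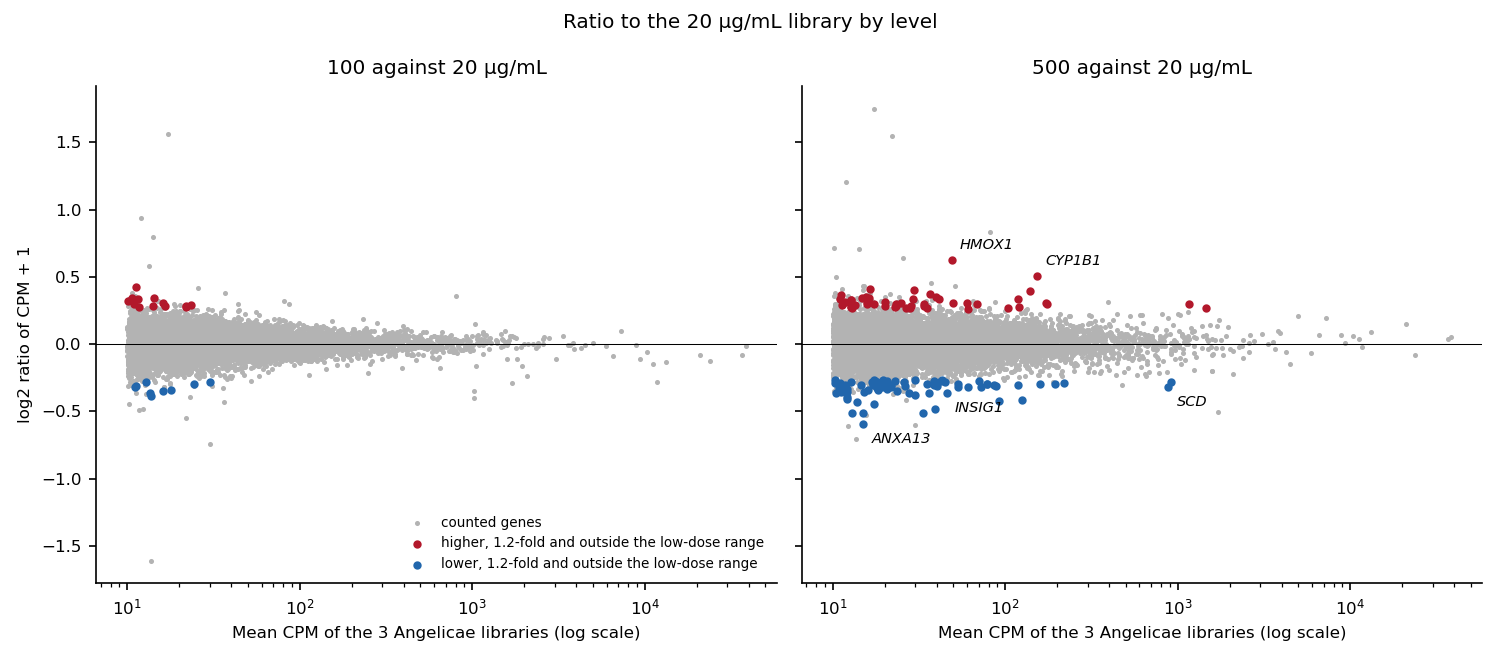
Log2 ratio of CPM + 1 (vertical axis) against the mean CPM of the 3 Angelicae libraries (horizontal log axis), for 100 against 20 µg/mL on the left and 500 against 20 µg/mL on the right. Each grey point is one of 9306 counted genes, and red and blue points are genes at least 1.2-fold higher or lower and outside the low-dose range, 22 on the left and 124 on the right.

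HMOX1 (chromosome 22, GRCh38 35380361 to 35394214, plus strand) breaks down haem. It had 40.6, 43.0 and 63.2 CPM at 20, 100 and 500 µg/mL, from 977, 1034 and 1440 counts. The 18 other low-dose libraries ran from 37.3 to 49.3 CPM with a median of 44.1, and the vehicle libraries from 51.4 to 53.2 CPM. The 500 µg/mL library was above all of those, while the 20 and 100 µg/mL libraries lay inside the low-dose range. The ratio of 500 to 20 µg/mL was 1.56, with an exact 95% interval of 1.44 to 1.69 that covers counting error only, as do all intervals below. Against the mean of the other low-dose libraries the log2 ratio was 0.52, under the 1.5-fold line, and against the vehicle mean of 52.5 ± 1.02 CPM (SD, n = 3) it was 0.26. In the other extracts' high-dose libraries HMOX1 ran from 42.2 to 123 CPM, so the Angelicae value was not the highest of the series.

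The NRF2 target list was at a level of 0.04, inside the -0.06 to 0.06 of the other low-dose libraries. Of 26 counted NRF2 targets, 13 were higher and 13 lower at 500 than at 20 µg/mL, with a median log2 ratio of 0.00 beside 0.01 over all counted genes, and HMOX1 was the single member past 1.2-fold and outside the low-dose range. Above that range at any fold lay 6 of the 26, where 7.14% of all counted genes did, and none lay below it, where 4.8% of all counted genes did. The glutathione synthesis genes GCLC and GCLM and the cystine transporter SLC7A11 were above that range with smaller ratios. GCLM had 142, 148 and 162 CPM at 20, 100 and 500 µg/mL, with 123 to 139 CPM in the other low-dose libraries. NQO1, a quinone reductase, had 1237, 1256 and 1225 CPM, inside the range.

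CYP1B1 (chromosome 2), a cytochrome P450 that oxidises aromatic compounds and a target of the aryl hydrocarbon receptor, had 129, 146 and 185 CPM at 20, 100 and 500 µg/mL. The other low-dose libraries ran from 114 to 144 CPM with a median of 122, and the vehicle libraries from 112 to 113 CPM. Both the 100 and the 500 µg/mL libraries were above every one of them. The ratio of 500 to 20 µg/mL was 1.43 (95% interval 1.36 to 1.49), and the gene also passed 1.2-fold against the mean of the other low-dose libraries. CYP1A1, the best known target of the receptor, was nearly silent, with 4, 10 and 19 counts, or 0.166, 0.415 and 0.834 CPM. Levels were 0.0866 to 0.604 CPM in the other low-dose libraries and 0.266 to 0.414 CPM in the vehicle libraries, all below the 500 µg/mL library. The ratio of 500 to 20 µg/mL was 5.02, with a wide interval of 1.67 to 20.3. CYP1A1 reached 218 CPM in another library of the series.

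Of the 7 counted aryl hydrocarbon receptor targets, 5 were higher at 500 than at 20 µg/mL, where 54.5% of all counted genes were, and 2 were lower. Their median log2 ratio was 0.17. Above the low-dose range lay 3 of them, where 7.14% of all counted genes lay at 500 µg/mL, and 0 were below it, where 4.8% lay. TIPARP, a feedback ADP-ribosyltransferase of the receptor, had 26.9, 30.8 and 30.4 CPM, against 25.5 to 30.4 CPM in the other low-dose libraries. ALDH3A1, an aldehyde dehydrogenase, had 946, 1047 and 1098 CPM and also lay inside the range. SLC7A5, a large neutral amino acid transporter, had 1061, 1115 and 1304 CPM against 987 to 1187 CPM. Its vehicle libraries had 1193 to 1263 CPM, so the 500 µg/mL level was above them too, by less than its distance from the 20 µg/mL level. Among genes regulated by PXR and CAR, nuclear receptors that sense foreign compounds, UGT1A1, which conjugates bilirubin, had 26.7, 26.0 and 32.6 CPM against 24.4 to 30.4 CPM in the other low-dose libraries. Its reads can be shared with other genes of the UGT1A locus, since these overlap. The export pump ABCC2 had 463, 480 and 486 CPM, and at 500 µg/mL was above all 57 other libraries with a ratio of 1.05.

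**Figure D3:**
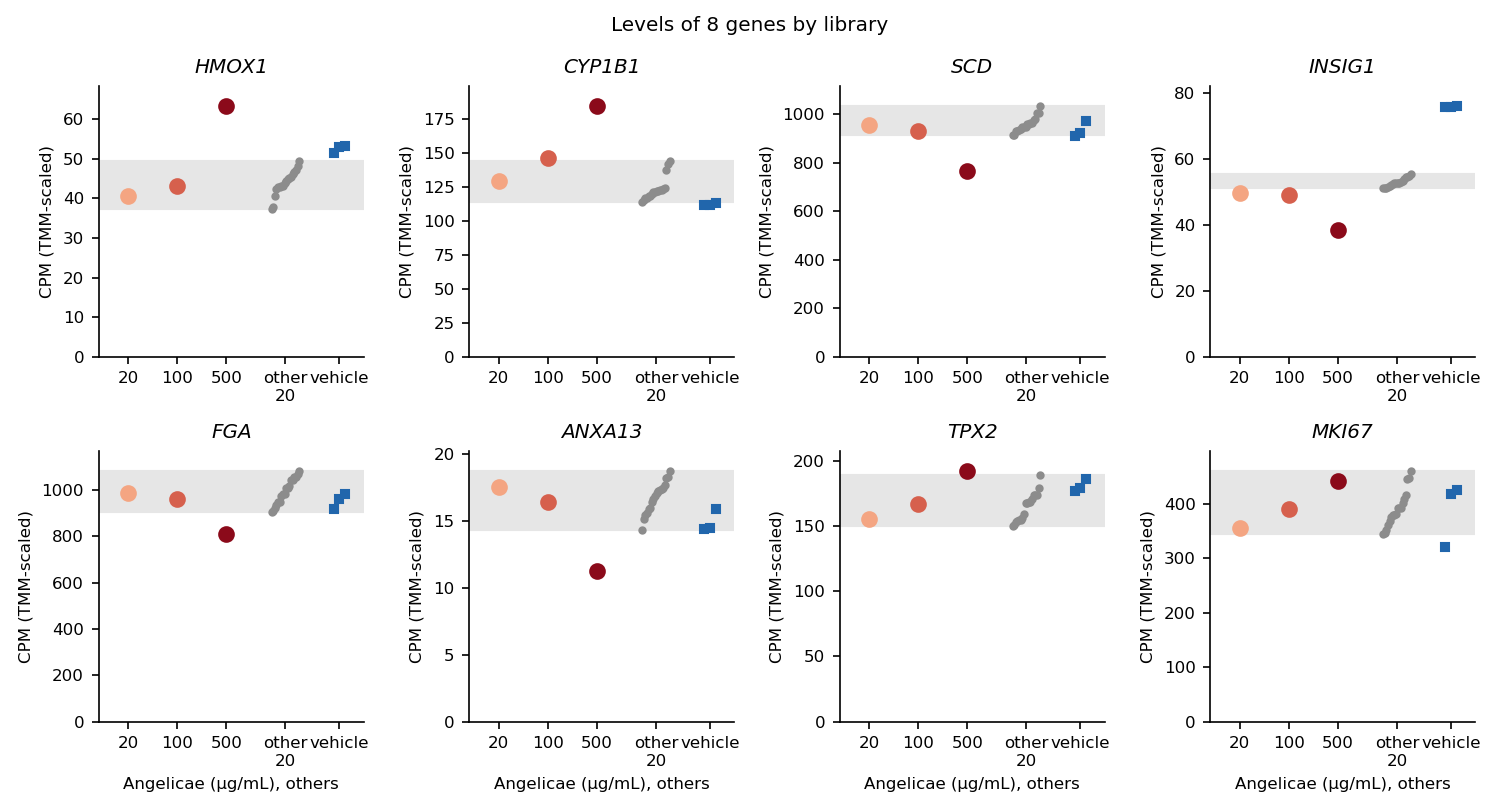
CPM (vertical axes, from 0) of 8 genes in the Angelicae libraries at 20, 100 and 500 µg/mL (large points, pale to dark), in the 18 other-extract libraries at 20 µg/mL (grey, sorted) and in the 3 vehicle libraries (blue squares), with the range of the 18 libraries shaded. The 500 µg/mL points of HMOX1 and CYP1B1 (63.2 and 185 CPM) lie above the shaded range, those of SCD, INSIG1, FGA and ANXA13 below it, and that of MKI67 (443 CPM) inside it.

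Lipid synthesis genes were lower at 500 µg/mL. All 12 counted fatty acid synthesis genes were lower than at 20 µg/mL, where 45.5% of all counted genes were, and the median log2 ratio was -0.18. Below the low-dose range lay 9 of them, beside 4.8% of all counted genes. SCD, ACSS2 and SREBF1, 3 in all, were below all 57 other libraries, as were 0.527% of all counted genes. Members of this and the other lists were chosen with earlier results of these data known. The lipid genes ACACB and ELOVL1, outside those 12, were slightly higher at 500 than at 20 µg/mL, with log2 ratios of 0.137 and 0.018. SCD, the desaturase that makes oleate from stearate, had 956, 928 and 766 CPM at 20, 100 and 500 µg/mL. The other low-dose libraries ran from 913 to 1032 CPM with a median of 954, and the vehicle libraries from 908 to 971 CPM. Its 500 µg/mL library was thus below every other library, and the ratio to 20 µg/mL was 0.801 (95% interval 0.785 to 0.817). SCD reached 2355 CPM in the high-dose Paeoniae Radix library.

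FASN, fatty acid synthase, had 1297, 1308 and 1135 CPM at 20, 100 and 500 µg/mL, against 1173 to 1575 CPM in the other low-dose libraries and 1498 to 1670 CPM in the vehicle libraries. ACSS2, which makes acetyl-CoA from acetate, had 57.04, 56.25 and 46.36 CPM against 52.23 to 60.03 CPM. The transcription factor gene SREBF1 had 111, 110 and 104 CPM against 110 to 138 CPM. In each of these genes the 20 and 100 µg/mL levels lay closer to each other than to the 500 µg/mL level. FADS2, a fatty acid desaturase, had 511, 503 and 443 CPM, but here the 20 µg/mL library itself was under the 528 to 586 CPM of the other low-dose libraries.

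Lower levels of cholesterol genes were not particular to Angelicae, as the list levels below show. Of 25 counted cholesterol synthesis and uptake genes, 23 were lower at 500 than at 20 µg/mL, where 45.5% of all counted genes were, with a median log2 ratio of -0.13. Below the low-dose range lay 9 of them, beside 4.8% of all counted genes. MVD, INSIG1 and HMGCS1 were also at least 1.2-fold lower, beside 0.795% of all counted genes. INSIG1, the sterol-sensing anchor of SREBP and itself an SREBP target, had 49.6, 49.1 and 38.4 CPM at 20, 100 and 500 µg/mL. In the other low-dose libraries it had 51.1 to 55.3 CPM, and in the vehicle libraries 75.8 to 76.1 CPM. All 3 Angelicae libraries were thus below those groups, and the 500 µg/mL library was the lowest of the series, with a ratio to 20 µg/mL of 0.774 (95% interval 0.708 to 0.845). MVD, mevalonate diphosphate decarboxylase, had 39.2, 38.3 and 30.3 CPM against 35.4 to 42.4 CPM in the other low-dose libraries, and 47.1 to 57.4 CPM in the vehicle libraries. HMGCS1, which feeds the mevalonate pathway, had 208, 206 and 169 CPM against 180 to 216 CPM. SQLE, squalene epoxidase, had 160, 160 and 151 CPM and lay inside the range of 149 to 169 CPM. GGPS1, which makes geranylgeranyl diphosphate and was in no list, had 20.2, 18.9 and 15.9 CPM and was also below all 57 other libraries.

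The promoters of INSIG1, SCD and MVD are shown as examples of SREBP programme genes that were lowest in the series at 500 µg/mL. ACSS2, SREBF1 and GGPS1 were also below all 57 other libraries, and their promoters are not shown. The 3 promoters run from 250 bases before to 50 after the RefSeq start (GRCh38.p14), 5′ to 3′ on the gene's strand. Each CCAAT box, read on either strand, is in capitals. The CCAAT box binds NF-Y, a factor known to act beside SREBP. INSIG1 lies at chr7:155297628-155297927 on the plus strand, SCD at chr10:100346983-100347282 on the plus strand and MVD at chr16:88663042-88663341 on the minus strand.
INSIG1: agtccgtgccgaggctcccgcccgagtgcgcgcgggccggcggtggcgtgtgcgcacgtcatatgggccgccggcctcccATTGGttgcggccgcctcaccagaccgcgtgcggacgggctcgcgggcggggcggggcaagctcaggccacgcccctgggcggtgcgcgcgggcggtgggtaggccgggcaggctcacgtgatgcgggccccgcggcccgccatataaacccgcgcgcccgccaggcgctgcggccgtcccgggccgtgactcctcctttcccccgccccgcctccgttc
SCD: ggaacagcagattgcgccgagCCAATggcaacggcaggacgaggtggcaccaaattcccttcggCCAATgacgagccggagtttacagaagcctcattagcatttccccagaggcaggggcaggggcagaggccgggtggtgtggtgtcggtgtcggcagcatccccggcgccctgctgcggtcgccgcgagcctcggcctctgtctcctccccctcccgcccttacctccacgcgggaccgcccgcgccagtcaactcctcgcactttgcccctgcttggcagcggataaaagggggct
MVD: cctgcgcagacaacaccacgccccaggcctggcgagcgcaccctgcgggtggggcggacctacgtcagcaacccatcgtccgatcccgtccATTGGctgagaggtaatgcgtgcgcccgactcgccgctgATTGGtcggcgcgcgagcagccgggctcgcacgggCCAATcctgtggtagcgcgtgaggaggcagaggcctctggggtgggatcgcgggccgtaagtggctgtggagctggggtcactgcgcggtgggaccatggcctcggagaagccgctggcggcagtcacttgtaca

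Of the 141 genes chosen by rule, 118 had a promoter in that table. The letters CCAAT occurred once in INSIG1, at 2 places in SCD and at 3 in MVD, and 34.6% of 35116 RefSeq promoters of that length held at least 1. The sterol element TCACNCCAC, searched on both strands, was not in these windows and was in 1.13% of all promoters. The aryl hydrocarbon receptor core GCGTG was at 3 places in INSIG1, 1 in SCD and 3 in MVD, and in 36.5% of all promoters. None of these motifs overlapped the CCAAT boxes, and a match is a description of letters only.

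Secreted plasma proteins, which A549 cells make although they are best known as liver products, were also lower at 500 µg/mL. Lower levels were not particular to Angelicae, as the list levels below show. Of 13 counted coagulation and complement genes, 12 were lower than at 20 µg/mL, where 45.5% of all counted genes were, with a median log2 ratio of -0.20. Below the low-dose range lay 8 of the 13, beside 4.8% of all counted genes, and 3 of them, FGA and CFI included, were also at least 1.2-fold lower, beside 0.795%. FGA, the fibrinogen alpha chain, had 985, 961 and 809 CPM at 20, 100 and 500 µg/mL. Its levels ran from 906 to 1083 CPM in the other low-dose libraries and from 918 to 983 CPM in the vehicle libraries, so the 500 µg/mL library was below both. FGB and FGG, the other fibrinogen chains, had ratios of 0.868 and 0.861 and were below the low-dose range too. CFI, a complement protease, had 18.2, 18.4 and 14.6 CPM, against 15.6 to 20.7 CPM in the other low-dose libraries and 15.1 to 15.6 CPM in the vehicle libraries.

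Further genes of that kind outside the list were among the lowest ratios. KNG1, kininogen, had 17.9, 15.1 and 12.2 CPM at 20, 100 and 500 µg/mL, against 14.9 to 20.5 CPM in the other low-dose libraries. RBP4, the retinol carrier, had 141, 129 and 106 CPM against 115 to 153 CPM. Both were lower at each higher dose, and both were below the vehicle libraries at 500 µg/mL, which had 12.9 to 14.6 CPM of KNG1 and 152 to 158 CPM of RBP4. APOH, a plasma apolipoprotein, had 10.1 CPM at 500 µg/mL and 13.5 CPM at 20 µg/mL. The 7 hepatocyte markers, of which 2 were counted, summed to 68.1, 61.2 and 53.4 CPM at 20, 100 and 500 µg/mL, against 54.7 to 84.5 CPM in the other low-dose libraries and 53.6 to 62.0 CPM in the vehicle libraries. ALB, their defining member, was at or under 0.132 CPM in each Angelicae library. The part of these markers in the result was not tested.

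ANXA13 had 17.5, 16.4 and 11.2 CPM at 20, 100 and 500 µg/mL. The other low-dose libraries ran from 14.3 to 18.7 CPM with a median of 16.9, and the vehicle libraries from 14.4 to 15.9 CPM. Only the 500 µg/mL library was below them, with a ratio to 20 µg/mL of 0.643 (95% interval 0.548 to 0.753). TP53INP2, an autophagy regulator, had 39.1, 33.8 and 27.1 CPM against 34.6 to 46.1 CPM. PDZK1IP1, a small membrane protein gene, had 15.5, 12.6 and 10.6 CPM against 13.7 to 18.9 CPM, and both of its upper doses were below that range. LEFTY1, a secreted inhibitor of Nodal signalling, had 19.2, 19.2 and 13.8 CPM against 16.9 to 27.8 CPM. SELENBP1, a methanethiol oxidase, had 103, 97.8 and 76.4 CPM against 91.3 to 113 CPM. NDUFA1, a complex I subunit, had 46.0, 39.0 and 32.7 CPM, but the other low-dose libraries reached down to 32.8 CPM.

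Cell cycle genes were higher at 500 than at 20 µg/mL. Higher levels were not particular to Angelicae, as the list levels below show. All 23 counted G2/M genes were higher than at 20 µg/mL, where 54.5% of all counted genes were, with a median log2 ratio of 0.22, and 17 were above the low-dose range, beside 7.14% of all counted genes. TPX2, AURKB, TTK, PLK1 and UBE2C, 5 in all, were at least 1.2-fold higher as well, beside 0.537% of all counted genes. Against the vehicle mean, the log2 ratios of AURKB, PLK1 and UBE2C at 500 µg/mL were -0.07, -0.05 and -0.09. The level of the whole list is set beside the vehicle libraries below. TPX2, a spindle assembly factor, had 155, 167 and 192 CPM at 20, 100 and 500 µg/mL. The other low-dose libraries ran from 150 to 189 CPM with a median of 168, and the vehicle libraries from 177 to 186 CPM. The 500 µg/mL library was thus just above both groups, and the 20 µg/mL library near the bottom of its range. The ratio of 500 to 20 µg/mL was 1.24 (95% interval 1.19 to 1.29), and TPX2 did not pass 1.2-fold against the mean of the other low-dose libraries. AURKB, a mitotic kinase, had 44.9, 48.1 and 55.7 CPM against 41.6 to 51.7 CPM, and passed against both. Its vehicle libraries had 53.7 to 61.6 CPM and overlapped the 500 µg/mL level. MKI67, the proliferation antigen, had 356, 391 and 443 CPM against 345 to 461 CPM and stayed inside the range.

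Of 23 counted G1/S genes, 19 were higher at 500 than at 20 µg/mL, where 54.5% of all counted genes were, with a median log2 ratio of 0.11, and 10 were above the low-dose range, beside 7.14% of all counted genes. CDC45, a subunit of the replicative helicase, was the member past 1.2-fold, with 12.4, 12.6 and 15.3 CPM at 20, 100 and 500 µg/mL against 10.9 to 13.4 CPM. The replication helicase gene MCM5 had 62.9, 66.8 and 72.7 CPM against 59.2 to 72.6 CPM, and its vehicle libraries had 78.6 to 85.3 CPM. EXO1, an exonuclease of DNA repair, had 25.7, 28.3 and 34.3 CPM against 24.0 to 33.3 CPM. The centriole genes PLK4 and SASS6 were above all 57 other libraries, as were 0.677% of all counted genes, with 17.6 and 14.4 CPM at 500 µg/mL and 13.6 and 11.2 CPM at 20 µg/mL. The next highest libraries had 17.60 and 13.87 CPM. CDKN1A, the cell cycle inhibitor under p53, had 130, 125 and 133 CPM against 122 to 145 CPM, and the 19 counted p53 targets had a median log2 ratio of 0.00.

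Outside the cell cycle, some of the larger ratios rested on a low value at 20 µg/mL. GPC1, a cell surface heparan sulphate proteoglycan, had 122, 133 and 160 CPM at 20, 100 and 500 µg/mL against 122 to 148 CPM, and the vehicle libraries had 159 to 165 CPM. DHODH, of pyrimidine synthesis, had 13.9, 16.3 and 18.8 CPM against 15.4 to 18.7 CPM. In both of these the 20 µg/mL library was at or under the lowest of the other low-dose libraries, and neither passed 1.2-fold against their mean. NOTCH3, a Notch receptor, had 35.2, 39.3 and 45.1 CPM against 30.8 to 39.8 CPM, and passed against both.

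Over the 34 lists with at least 4 counted genes, the level of a list was taken as the median over its genes of the log2 distance from the mean of the 18 other low-dose libraries. At 500 µg/mL, 5 lists were above the range of the low-dose libraries, 4 below and 25 within it. The G2/M list was at 0.19 at 500 µg/mL and -0.01 at 20 µg/mL, with -0.10 to 0.12 in the other low-dose libraries and 0.04 to 0.10 in the vehicle libraries. In the other extracts' 500 µg/mL libraries it ran from -0.34 to 0.35. It was above the Angelicae level there in Poria Cocos (0.30 to 0.35), Sibjeondaebo-tang (0.20 to 0.27) and Palmul-tang (0.27 to 0.28). It was below that level in Atractylodis, Ginseng, Glycyrrhizae Radix and Paeoniae Radix. The coagulation and complement list was at -0.21 at 500 µg/mL and -0.01 at 20 µg/mL. It was at -0.07 to 0.12 in the other low-dose libraries and -0.11 to -0.09 in the vehicle libraries. The other extracts' 500 µg/mL libraries ran from -0.85 to -0.03, with -0.20 in Poria Cocos and -0.85 to -0.78 in Glycyrrhizae Radix. The fatty acid synthesis list was at -0.19 at 500 µg/mL and -0.03 at 20 µg/mL, with -0.04 to 0.04 in the other low-dose libraries. The fatty acid synthesis level at 500 µg/mL was below all 57 other libraries, of which the lowest was at -0.11. The cholesterol list was at -0.11 and 0.02, with -0.08 to 0.05, while the vehicle libraries were at 0.11 to 0.19, above all of the low-dose libraries.

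The G1/S list was at 0.13 at 500 µg/mL with -0.09 to 0.10 in the other low-dose libraries, but the vehicle libraries were at 0.13 to 0.21. The other extracts' 500 µg/mL libraries ran from -0.23 in Paeoniae Radix to 0.32 in Poria Cocos. The aryl hydrocarbon receptor list was at 0.118, barely above the highest other low-dose library at 0.114, and the lowest was at -0.08. In the other extracts' 500 µg/mL libraries it ran from -0.04 to 1.10. The PXR and CAR list was at 0.08, with -0.08 to 0.06 in the other low-dose libraries. The ATF4 list was at 0.09 with -0.06 to 0.06, and the vehicle libraries, at 0.04 to 0.11, spanned that level. The glucocorticoid-responsive list was at -0.09 with -0.04 to 0.04, and was at -0.06 already at 20 µg/mL. Each low-dose library of another extract, held against the remaining low-dose libraries, had 0 to 9 lists outside, with a median of 3.5, against 9 for the Angelicae 500 µg/mL library. For replicated extracts the remaining libraries included others of the same extract, which can make their numbers smaller.

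**Figure D4:**
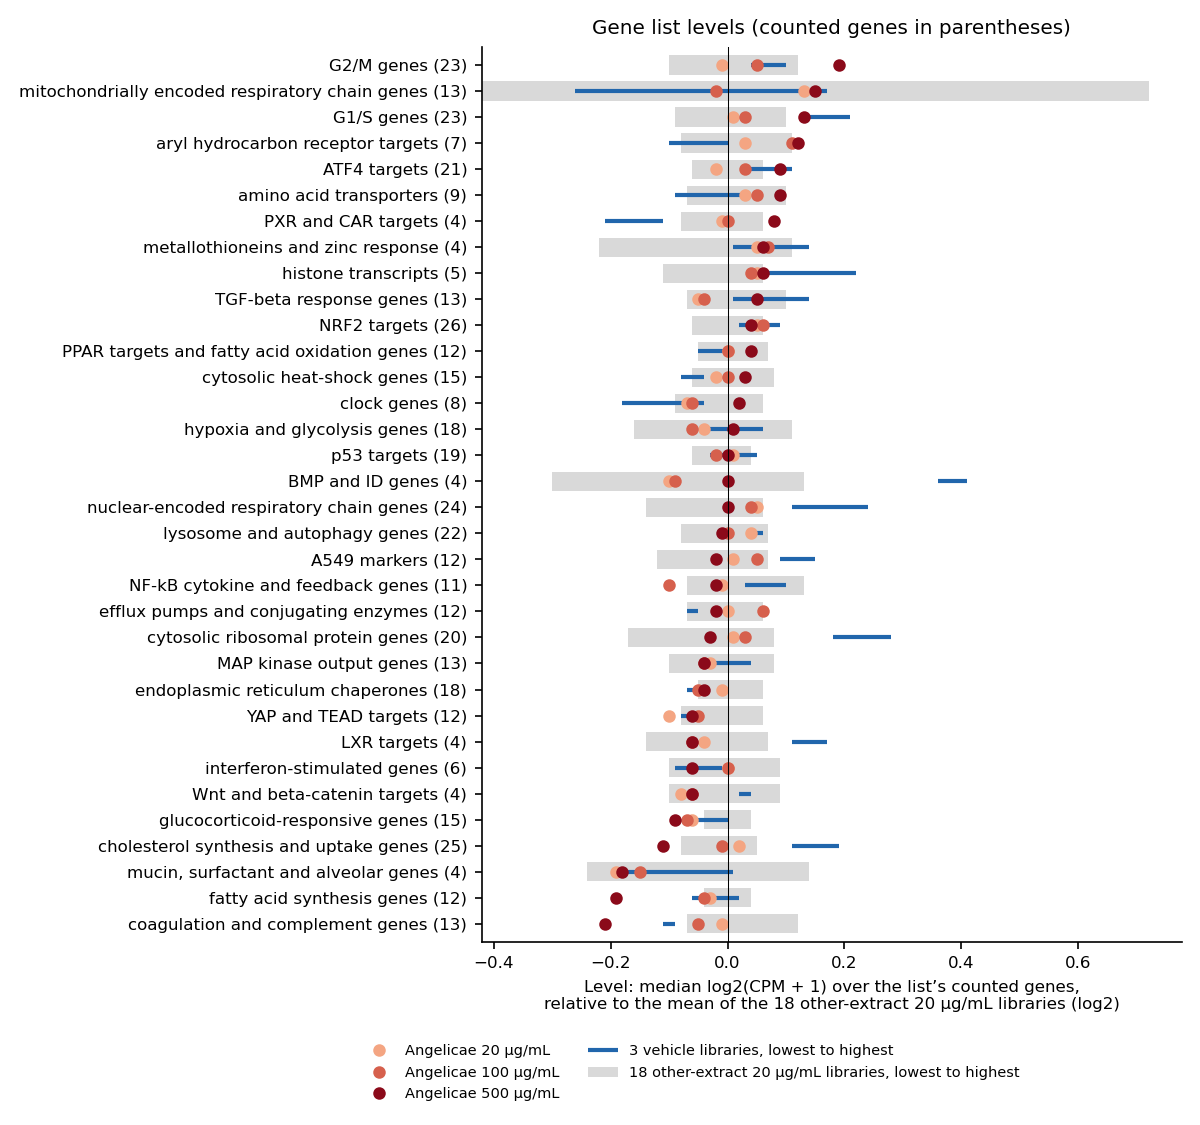
Level of 34 gene lists (rows, counted genes in parentheses) as the median log2 distance from the mean of the 18 other-extract low-dose libraries (horizontal axis), for Angelicae at 20, 100 and 500 µg/mL (pale to dark points), with the range of those 18 libraries in grey and of the 3 vehicle libraries as blue lines. The darkest points lie outside the grey range in 9 lists, among them G2/M at 0.19 and coagulation and complement at -0.21.

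ASNS, asparagine synthetase and a target of ATF4, had 32.3, 34.2 and 36.2 CPM at 20, 100 and 500 µg/mL, above the 30.0 to 34.8 CPM of the other low-dose libraries, with a ratio of 1.12 (95% interval 1.01 to 1.24). DDIT3, the stress transcription factor CHOP, had 5.48, 5.61 and 5.14 CPM. CXCL8, an inflammatory chemokine, was barely detected, with 1.204, 1.786 and 1.098 CPM. Inside the low-dose range as lists, the endoplasmic reticulum chaperones had a median log2 ratio of -0.02, the cytosolic heat-shock genes of 0.08 and the NF-kB genes of -0.04. The mitochondrially encoded respiratory chain list was at 0.13, -0.02 and 0.15 at 20, 100 and 500 µg/mL, within a low-dose range of -0.42 to 0.72.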

How the data were processed

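Messenger RNA of A549 cells was sequenced. Per the submitters' processing notes, the tools were FastQC 0.11.9, Trim Galore 0.6.5, STAR 2.7.3a and RSEM 1.3.3 with the GRCh38 genome. For annotation release and strandedness: not given in the sources used here. Expected counts, estimated by RSEM for each gene, were deposited by the authors in a table of which 210 columns were not used here. Expected counts were rounded, scaled by TMM over all 60 libraries (edgeR 4.0.16) and given as CPM. Genes averaging at least 10 CPM over the 3 Angelicae libraries were compared as log2(CPM + 1), which understates changes of low genes; no statistical test was made. Intervals of ratios are exact Clopper-Pearson at 95%, for counting error only. Named genes are the largest ratios each way past the fold and range (15 for the high dose, 5 for the medium dose), 3 per list, and 10 fixed genes; some others are named where a group is described, after their values were seen. Members and lists were chosen with earlier results of these data known. Symbols and positions came from gene name tables and GENCODE 29, promoters from RefSeq. The calling code was checked on simulated data with known changes. Alternatives were the scaling, pseudocount, level filter, fold, rounding, comparison library and each low-dose library left out. A few genes are not reported here.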

Additional observations from a re-analysis of the deposited data

Results flagged for a closer look

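The cholesterol synthesis and uptake list had a median log2 ratio of -0.132 for the Angelicae 500 against 20 µg/mL libraries, and moved the opposite way in every library pair of 2 other extracts with at least 2 pairs. The ratios of high against low dose were 0.22 to 0.257 in 3 pairs of Panax Ginseng and 0.161 to 0.201 in 3 pairs of Poria Cocos. The cholesterol list was also negative in all 3 pairs of Atractylodis, at -0.069 to -0.053, and of Glycyrrhizae Radix, at -0.16 to -0.008, and in both pairs of Palmul-tang, at -0.014 to -0.002. Sibjeondaebo-tang pairs ran from -0.046 to 0.03, and the Paeoniae Radix pair was at 0.634. The BMP and ID list, with 4 counted genes, had a median of 0.101 for Angelicae, and 0 of the 4 lay outside the low-dose range. Its level was -0.10 at 20 µg/mL and 0.00 at 500 µg/mL. Both lay within the -0.30 to 0.13 of the other low-dose libraries, and the vehicle libraries were at 0.36 to 0.41. The median ratio of that list was -0.596 to -0.492 in 3 pairs of Glycyrrhizae Radix and -0.373 to -0.299 in 2 pairs of Palmul-tang. It was -0.275 to -0.193 in 3 pairs of Poria Cocos and -0.279 to -0.166 in 3 pairs of Sibjeondaebo-tang. The BMP and ID list was positive, as for Angelicae, at 0.001 to 0.171 in 3 pairs of Atractylodis, 0.093 to 0.136 in 3 pairs of Panax Ginseng and 0.116 in the Paeoniae Radix pair. Angelicae has 1 pair, and these differences were not tested.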

How the results depend on the processing

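Counts below are of genes past 1.5-fold, past 1.5-fold and outside the low-dose range, and past 1.2-fold and outside it. For 500 against 20 µg/mL they were 12, 2 and 124 as reported, and for 100 against 20 µg/mL 5, 0 and 22. With a pseudocount of 5 the first set became 4, 0 and 70 and the last count at 100 µg/mL 6. A minimum mean of 1 CPM gave 79, 24 and 357 at 500 µg/mL and 61, 13 and 173 at 100 µg/mL, no filter gave 137, 41 and 625 and 116, 26 and 383, and a minimum of 50 CPM gave 1, 0 and 29 and 0, 0 and 0; low genes enter or leave by construction. Against the mean of the other low-dose libraries, the 100 µg/mL counts were 9 past 1.5-fold and 39 past 1.2-fold and outside. The 42 genes given above for that mean were counted outside the range of the 18 other low-dose libraries only. Against the low-dose Paeoniae Radix library they were 33 past 1.5-fold and 6 also outside at 500 µg/mL, and 42, 4 and 154 at 100 µg/mL. Against the vehicle mean they were 52, 17 and 388 at 500 µg/mL and 51, 13 and 400 at 100 µg/mL, and the GPC1 log2 ratio at 500 µg/mL became -0.014. Against that mean, the ratios of MCM5 (-0.17), AURKB (-0.07), UBE2C (-0.09), PLK1 (-0.05), ALDH3A1 (-0.03) and CDKN1A (-0.27) were also negative, where they were positive against 20 µg/mL; the cause was not tested. At 2-fold, 3 and 0 genes were left at 500 µg/mL and 2 at 100 µg/mL. Leaving out each low-dose library of the other extracts in turn gave 2 to 3 and 124 to 130 genes at 500 µg/mL, and 0 to 1 and 22 to 25 at 100 µg/mL, the 1 appearing without the third Sibjeondaebo-tang library; without the Poria Cocos library that stood apart there were 128 at 500 µg/mL. RLE size factors, total counts alone, a pseudocount of 0.5 and unrounded counts kept every count within 1.5 times. No paired analysis was possible because each Angelicae dose has 1 library. With 1 library a dose, no spread between repeats of a dose could be measured.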
